A study of Rattus norvegicus with 80 samples.

Results

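The genes described here build, cross-link or regulate the extracellular matrix of the lung and are widely used to follow fibrosis. They were chosen by gene symbol from a list of 37, and 35 of them were on the array among the 15924 genes with a symbol. Acta2 and Col6a3 of the list were not in the probe table, and the gene now called Ccn2 carried its older name Ctgf. Of the 35 genes, 18 had 1 probe, 15 had 2 and 2 had 3, and the probes of a gene were averaged.

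Collagens are triple helical proteins secreted by fibroblasts and their relatives, and the fibrillar types are bundled and cross-linked into the fibres that give tissue its tensile strength. Matricellular proteins such as tenascin C and the thrombospondins add little strength and instead tune how cells attach and respond, and many appear only while tissue grows or repairs. Transforming growth factor beta 1 is the best known inducer of collagen and fibronectin genes in fibroblasts, and in the young lung the same matrix genes are active as the airspaces and vessels grow.

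The rats were male Sprague-Dawley animals of the Crl:CD(SD) stock, bought at 7 weeks of age. Each received 1 instillation into the trachea of cellulose nanofibrils (very thin fibres made from cellulose) as 1 of 3 preparations named CNF1, CNF2 and CNF3, of multi-walled carbon nanotubes (MWCNT), or of the vehicle of its material, distilled water with preservatives. Lungs were rinsed with saline through the vessels and RNA of the whole right lung was measured on 1-colour Agilent arrays on days 1, 3, 7, 30 and 90. Besides vehicle, each material was labelled with a low dose of 0.5 mg/kg, a middle dose of 1.0 mg/kg and a top dose of 2.0 mg/kg, while the protocol gave 1 mg/kg and suspensions in mg/mL. The doses named here are those of the labels. There was 1 array in each of 80 groups, and each of the 4 materials had 5 vehicle arrays. According to the protocol 4 rats made up each group on a day. The labels call 73 arrays replicate 4 and 7 arrays replicate 3, without saying if RNA was pooled or came from a single animal. The p-values below therefore measure the scatter between preparations or days, with the 3 cellulose preparations standing in for replicates, and say nothing of the spread between rats of a group.

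The authors deposited log values, taken here as base 2 because the base was not given. The values were normalized and centred probe by probe, so a gene can be compared between arrays but not with another gene. The number of arrays sets the precision. The median SE of a 2.0 mg/kg effect on 1 day was 0.135 on the log2 scale. In bulk lung RNA, fewer cells of a type and less RNA per cell cannot be told apart. The arrays also carry 27 spots for spike-in RNA and negative controls. In the gene fits, 9 of these spots passed the threshold for cellulose on day 1, 11 on day 3 and 7 on day 7. On days 30 and 90 and with MWCNT 0 passed, and 2 passed for vehicle day 90 minus days 1 and 3. Shifts were not always small where 0 passed. The median absolute difference of the spots for cellulose was 0.63 on day 1, 0.07 on day 3 and 0.09 on day 7. It was 0.08 on day 30 and 0.61 on day 90. With MWCNT it was 0.41 in the first week and 0.49 on days 30 and 90. Adding 3 factors of these spots to the fit left 0 of the 16 calls of matrix genes on day 1, 5 of 21 on day 3 and 1 of 13 on day 7. The loss ran across the array. Of all genes 5529 passed on day 1 without the factors and 19 with them. These counts were 7048 and 1377 on day 3, and 4281 and 76 on day 7. Some of the differences of matrix genes stayed near their size, while others shrank or grew. On day 1 Dcn was -1.19 with the factors (-1.05 without), Fn1 0.8 (0.7 without) and Tgfbi 0.66 (0.57 without). Ccn2 grew to 0.91 (0.48 without), while Thbs1 shrank to 1.62 (2.38 without) and Col6a1 to 0.17 (0.72 without). On day 7 Thbs1 shrank to 0.51, Tnc to 0.3, Vcan to 0.38 and Col15a1 to 0.04. Fn1 (0.57) and Dcn (-1.34) hardly moved on that day. In the fit of all 80 arrays, 17 of 17 calls remained for CNF1, 10 of 12 for CNF2, 8 of 10 for CNF3 and 8 of 8 for MWCNT with the same factors. What lies behind the shift of the control spots was not tested.

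At 2.0 mg/kg of cellulose, Thbs1, Tnc, Fn1, Vcan and Plod2 rose on days 1, 3 and 7, and Dcn fell. On day 1, 8 of the 35 genes rose and 8 fell (limma, adjusted p under 0.05), or 45.7% beside 34.7% of all genes, of which 17.9% were higher and 16.9% lower. On day 3, 17 rose and 4 fell, or 60% beside 44.3% of all genes (24.7% higher and 19.5% lower). On day 7, 11 rose and 2 fell, or 37.1% beside 26.9% (13.8% higher and 13.1% lower). The median difference of the 35 genes was 0.05 on day 1, 0.28 on day 3 and 0.13 on day 7, beside 0.08, 0.0 and -0.04 over all genes. Many genes of the array passed on these days, so the counts say little about matrix genes, and the values of single genes follow. Leaving out CNF2 lowered the counts to 9, 12 and 5, and those over all genes to 2896, 3884 and 1635.

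**Figure D1:**
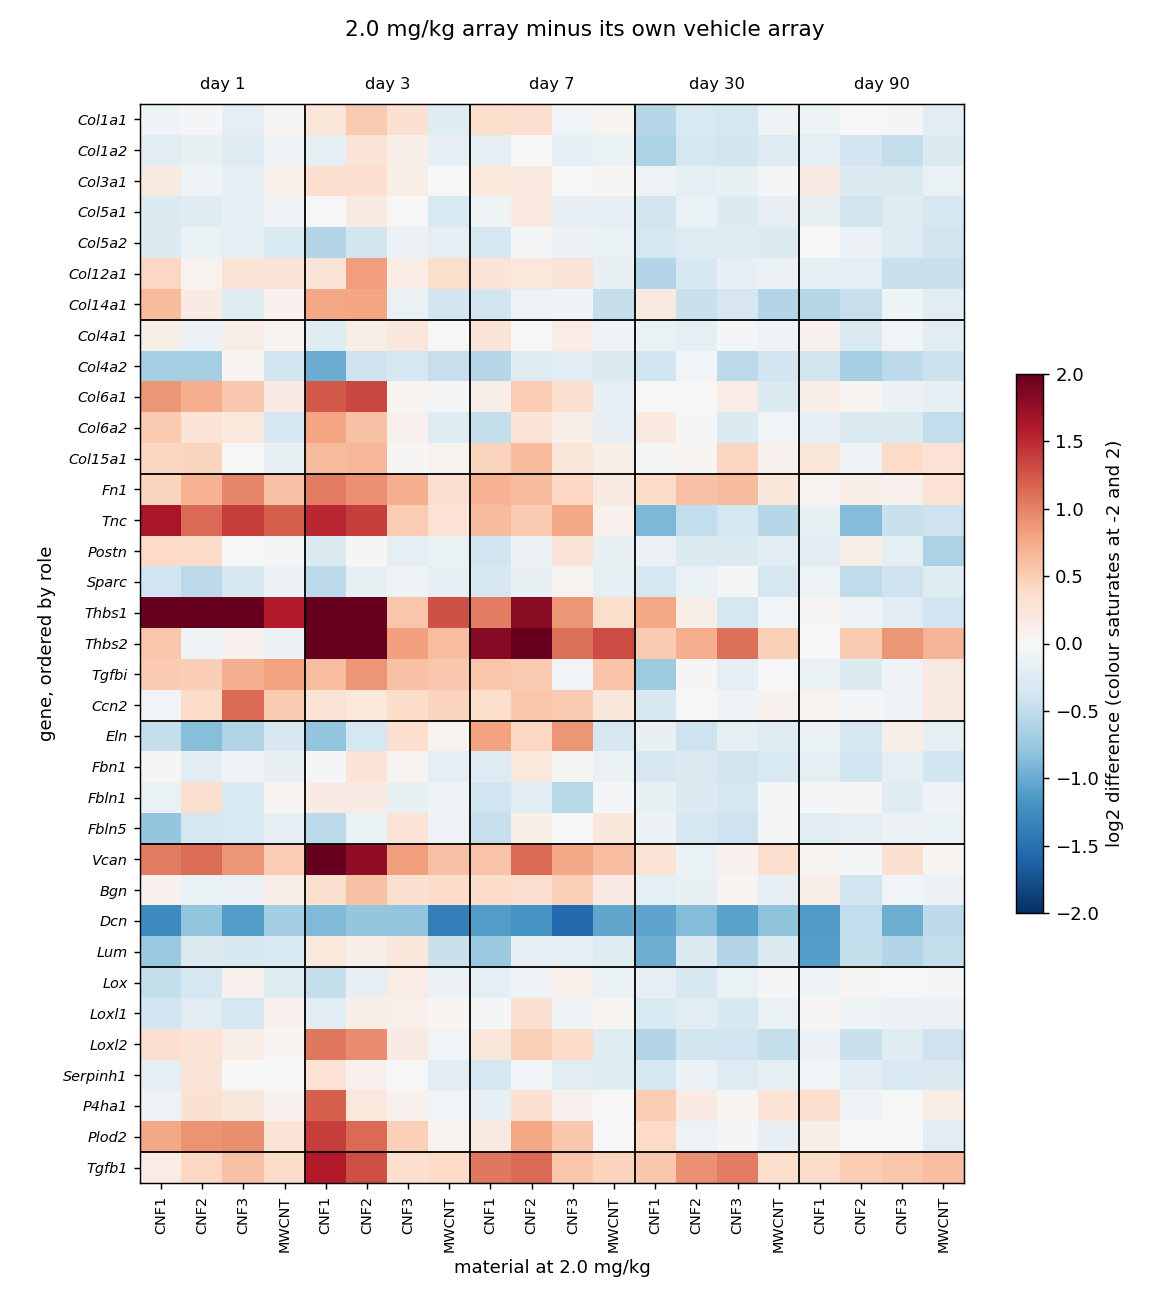
Log2 difference of each 2.0 mg/kg array from the vehicle array of the same material and day, for 35 genes (rows, ordered by role) and 20 pairs of arrays (columns). Red is higher than vehicle and blue lower. Dcn was lower in all 20 pairs, and Thbs1, Tnc and Vcan were higher in every pair of days 1, 3 and 7.

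Thrombospondin 1 (Thbs1), a secreted glycoprotein known to activate latent transforming growth factor beta, showed the largest rise. On day 1 its 2.0 mg/kg arrays lay above their own vehicles by 2.39 for CNF1, 2.56 for CNF2 and 2.18 for CNF3. All 3 were far above 0, with a mean difference of 2.38 ± 0.32 (SE, adjusted p = 0.00018), a 5.2-fold change. On day 3 the differences were 2.62, 2.29 and 0.55, so that CNF3 stood well below the other preparations, and on day 7 they were 1.03, 1.8 and 0.89. The means of these days passed the test as well (1.82 ± 0.32 and 1.24 ± 0.32). By day 90 the differences were 0.03, -0.09 and -0.23, with no shared direction. The related Thbs2, which binds matrix proteases and limits vessel growth, followed later. Its differences on day 1 were 0.56, -0.09 and 0.08, and on day 3 they were 3.1, 2.04 and 0.82. The day 3 mean was 1.98 ± 0.33 (SE, adjusted p = 0.00026), a 3.96-fold rise, and the day 7 mean was 1.64 ± 0.33.

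Tenascin C (Tnc), a glycoprotein of healing and developing tissue, differed from vehicle on day 1 by 1.64 for CNF1, 1.13 for CNF2 and 1.38 for CNF3. Its mean rise was 1.38 ± 0.21 on day 1, 1.13 ± 0.21 on day 3 and 0.64 ± 0.21 on day 7. On day 30 all 3 preparations lay on the other side, at -0.9, -0.5 and -0.35, but the mean did not pass (-0.58 ± 0.21, adjusted p = 0.12). Fibronectin (Fn1), the adhesive protein on which collagen fibres assemble, was higher than vehicle in all 15 cellulose pairs, with a lowest difference of 0.04, a median of 0.63 and a highest of 1.03. It rose by 0.70 ± 0.10 on day 1, 0.89 ± 0.10 on day 3, 0.58 ± 0.10 on day 7 and 0.53 ± 0.10 on day 30 (SE). On day 90 the 3 differences were 0.04, 0.14 and 0.09. The day 3 rise of Fn1 was among the 5 calls kept with the control-spot factors (0.9, adjusted p = 0.012), together with Thbs2, Vcan, Dcn and Tgfb1.

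Tgfbi, an adhesion protein named for its induction by transforming growth factor beta, rose by 0.57 ± 0.13 on day 1 and 0.69 ± 0.13 on day 3. Its 2 probes gave 0.37 and 1.02 on day 3, the same direction at different sizes. Ccn2, or connective tissue growth factor, differed on day 1 by -0.06 for CNF1, 0.38 for CNF2 and 1.13 for CNF3. These values spread over more than 1 log2 unit, and the mean rise was 0.48 ± 0.15 on days 1 and 7 alike, with 0.28 ± 0.15 on day 3 (adjusted p = 0.14). Sparc, a collagen-binding matricellular protein, went the other way and fell by 0.41 ± 0.10 on day 1 and 0.25 ± 0.10 on day 3. Periostin (Postn) passed on none of the 5 days.

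Upstream sequences of 3 matricellular genes are shown, those of Thbs1 and Tnc because they had the largest rises of this group on day 1, and that of Ccn2 because it is a textbook target of transforming growth factor beta. They are the 250 bases before the start site on the gene's own strand (RefSeq, build GRCr8). Capitals mark motifs, each searched on both strands. They are a SMAD element, a TATA box and an AP-1 site, spelled out after the sequences, and none of the matches shown overlaps another. Thbs1 lies at chr3:125510000-125510249 (plus strand), Tnc at chr5:82476132-82476381 (minus strand) and Ccn2 at chr1:22624615-22624864 (minus strand).
Thbs1: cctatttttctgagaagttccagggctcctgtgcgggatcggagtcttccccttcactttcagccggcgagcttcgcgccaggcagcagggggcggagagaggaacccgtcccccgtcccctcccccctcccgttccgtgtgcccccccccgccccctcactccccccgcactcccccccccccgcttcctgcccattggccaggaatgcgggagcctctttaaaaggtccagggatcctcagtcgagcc
Tnc: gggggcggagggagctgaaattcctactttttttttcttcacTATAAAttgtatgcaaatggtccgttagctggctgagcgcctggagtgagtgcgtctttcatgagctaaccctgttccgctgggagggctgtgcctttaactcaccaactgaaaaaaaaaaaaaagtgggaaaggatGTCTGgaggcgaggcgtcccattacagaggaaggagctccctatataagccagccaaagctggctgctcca
Ccn2: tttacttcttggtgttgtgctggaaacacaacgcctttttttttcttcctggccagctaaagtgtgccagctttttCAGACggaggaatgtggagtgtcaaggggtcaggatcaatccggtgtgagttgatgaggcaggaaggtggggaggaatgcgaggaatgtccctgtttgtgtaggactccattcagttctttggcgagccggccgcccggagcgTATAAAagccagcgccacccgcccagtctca
Ccn2 holds a TATA box at -31 and a SMAD element at -174, and Thbs1 holds none of the 3 motifs in this window. Tnc holds a match to TATAAA at -208 and a SMAD element on the other strand at -71. Nearer its start site Tnc also holds the letters tatataag, left unmarked because only exact matches to TATAAA were searched. Of the 35 genes, 22 had an entry in the promoter table, and the SMAD element, searched with the letters CAGAC, was in 11 of them, beside 42.9% of all 33469 promoters in the table. The TATA box, taken as any match to the letters TATAAA, was found upstream of 4 of the 22 genes (18.2%), beside 12.9% of all promoters. The AP-1 site had 1 match among the 22 genes, upstream of Col6a1, beside 6.34% of all promoters, and was searched as TGANTCA.

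Among the proteoglycans, versican and decorin moved in opposite directions. Versican (Vcan), a large space-filling proteoglycan of provisional matrix, differed from vehicle on day 3 by 2.35 for CNF1, 1.77 for CNF2 and 0.84 for CNF3. The 3 exposed arrays lay above all 4 vehicle arrays of that day, and the mean rise was 1.65 ± 0.19 (SE, adjusted p = 2.2e-05), a 3.15-fold change. It also rose on day 1 (1.02 ± 0.19) and day 7 (0.82 ± 0.19). On days 30 and 90 the mean differences were 0.07 and 0.11, short of the threshold.

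Decorin (Dcn), a small proteoglycan that coats collagen fibrils and binds transforming growth factor beta, was the only one of the 35 genes that passed in every one of the 5 days and in both MWCNT windows. Its 15 cellulose differences ran from -1.56 to -0.5 with a median of -1.06, and the 5 MWCNT differences were -0.69, -1.37, -1.04, -0.8 and -0.52 in the order of the days. None of the 20 pairs was at or above 0, and on each day the 3 cellulose arrays lay below all 4 vehicle arrays. The mean fall on cellulose was 1.05 ± 0.14 on day 1, 0.82 ± 0.14 on day 3, 1.29 ± 0.14 on day 7, 1.00 ± 0.14 on day 30 and 0.87 ± 0.14 on day 90 (SE). At its lowest this was a 2.44-fold fall. Dcn had 1 probe, so no second probe bears on this value. With the control-spot factors it passed on days 3, 7, 30 and 90 but not on day 1 (-1.19, adjusted p = 0.074), and leaving out either CNF2 or CNF3 lost its day 90 call.

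Lumican (Lum), a relative of decorin that spaces collagen fibrils, fell by 0.45 ± 0.14 on day 1, 0.61 ± 0.14 on day 30 and 0.72 ± 0.14 on day 90. On day 3 its 3 differences were 0.21, 0.11 and 0.22, all above 0 but short of the threshold. Biglycan (Bgn), the third small proteoglycan, rose by 0.41 ± 0.09 on day 3 and 0.39 ± 0.09 on day 7. Dcn and Lum are also expressed by resident fibroblasts, and of 11 fibroblast markers 3 fell on day 1, 4 on day 3, 4 on day 7, 1 on day 30 and 0 on day 90, while 1 rose on days 3 and 7. The markers that fell on day 1 were 27.3% of the list, where 16.9% of all genes were lower. Of all genes 19.5% were lower on day 3, 13.1% on day 7, 2.03% on day 30 and 0.521% on day 90. On days 3 and 7, 24.7% and 13.8% were higher. In either direction 45.5% of the markers passed on day 3, beside 44.3% of all genes. The mean of these markers on day 1 was -0.14 to 0.08 in the vehicle arrays and -0.56 to -0.39 in the cellulose arrays. On day 90 these ranges overlapped, at -0.1 to 0.0 and -0.27 to 0.04. Their part in the fall of Dcn was not tested.

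The fibrillar collagens changed by small amounts. Col1a1 and Col1a2 encode the chains of type I collagen, the main collagen of scar. On day 3 Col1a1 differed from vehicle by 0.24 for CNF1, 0.53 for CNF2 and 0.3 for CNF3, a rise of 0.36 ± 0.09 (SE, adjusted p = 0.0041), and Col3a1, which encodes type III collagen, rose by 0.26 ± 0.09. Col1a2 did not pass on day 3 (0.07 ± 0.08). On day 30 Col1a1 differed by -0.57, -0.3 and -0.35 and Col1a2 by -0.64, -0.35 and -0.36. Both genes were then below vehicle with every preparation, with mean differences of -0.41 ± 0.09 and -0.45 ± 0.08. On day 90 Col1a2 alone of the 7 genes in this group still passed (-0.35 ± 0.08, adjusted p = 0.047). Type V collagen, which starts fibrils, was lower where it passed, with Col5a1 falling by 0.24 ± 0.08 on day 1 and Col5a2 by 0.35 ± 0.08 on day 3. The 2 probes of Col5a1 gave -0.22 and 0.35 on day 3, so its value there depends on the probe. Col12a1, of a collagen on the fibril surface, rose by 0.41 ± 0.13 on day 3, with differences of 0.25, 0.83 and 0.15. Without CNF2 its mean was 0.2 and did not pass.

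On the late days more of the 35 genes fell than rose. On day 30, 2 genes rose and 6 fell, where 6.15% of all genes passed (4.13% higher and 2.03% lower). On day 90, 0 rose and 3 fell, where 1.5% of all genes passed (0.98% higher and 0.521% lower). The median difference was -0.22 and -0.12, beside -0.02 and 0.0 over all genes. The genes that fell on day 30 were Col1a1, Col1a2, Fbn1, Dcn, Lum and Loxl1, and those on day 90 were Col1a2, Dcn and Lum. These counts rested on few arrays: the 8 calls of day 30 became 1 without CNF2 and 5 without CNF3, and the 3 calls of day 90 became 0 without either. Of all genes, 82 and 486 then passed on day 30, and 3 and 53 on day 90.

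Col6a1 and Col6a2, chains of the beaded type VI collagen, rose on day 3 by 0.87 ± 0.17 and 0.48 ± 0.15. The Col6a1 differences were 1.23 for CNF1, 1.33 for CNF2 and 0.06 for CNF3, so CNF3 hardly differed from its vehicle. The day 1 rise of Col6a1 (0.72 ± 0.17) turned to -0.07 after quantile normalization (adjusted p = 0.73). Col15a1, of a vessel-associated collagen, rose on days 3 and 7 by 0.44 ± 0.14 and 0.45 ± 0.14.

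Col4a1 and Col4a2 encode the chains of type IV collagen, the sheet-forming collagen of basement membranes, and are transcribed in opposite directions from start sites that lie 76 bases apart. The bases between the starts are shown because both genes share them while their values under exposure were unlike, at chr16:84885521-84885596 (plus strand, RefSeq, build GRCr8), with Col4a1 to the right on the plus strand and Col4a2 to the left on the minus strand.
Col4a1 and Col4a2: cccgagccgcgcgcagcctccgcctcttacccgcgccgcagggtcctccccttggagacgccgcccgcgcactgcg
Of these bases 78.9% are G or C, and none of the 3 motifs above is among them. Col4a2 differed from vehicle on day 3 by -1.0 for CNF1, -0.41 for CNF2 and -0.34 for CNF3, a mean of -0.58 ± 0.14 (SE, adjusted p = 0.004), and it fell on day 1 by 0.44 ± 0.14. Col4a1 differed on day 3 by -0.25, 0.12 and 0.23, with a mean of 0.03 ± 0.09 (adjusted p = 0.84). Over all days Col4a2 was below vehicle in 14 of 15 cellulose pairs and Col4a1 in 8 of 15, and the difference between the genes was not tested. Col4a1 was read by 2 probes and Col4a2 by 1. Endothelial cells, which lie on basement membrane, are a known source of type IV collagen. On day 3, where 19.5% of all genes were lower, 7 of 10 endothelial markers fell, with a median of -0.52. Their part in the Col4a2 value was not tested.

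Elastic fibre genes showed 1 change of direction. Elastin (Eln), the rubber-like core protein of elastic fibres, differed from vehicle on day 1 by -0.47 for CNF1, -0.85 for CNF2 and -0.6 for CNF3. On day 7 the differences were 0.8, 0.41 and 0.88. The 3 arrays lay below all 4 vehicles on day 1 and above all 4 on day 7, with means of -0.64 ± 0.16 and 0.70 ± 0.16 (SE). Day 3 held both signs (-0.79, -0.35 and 0.34). The rise on day 7 was not seen with MWCNT, where the difference was -0.34, and on that day the vehicle array of CNF3 was low (0.09) among the 4 vehicles. Fbln5, which helps elastin assemble, fell on day 1 by 0.48 ± 0.14, and Fbn1, the fibrillin of microfibrils, fell on day 30 by 0.33 ± 0.08. Fbln1 fell on day 7 by 0.39 ± 0.10, but its 2 probes gave 0.52 and -0.4 on day 3.

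Among enzymes and chaperones of collagen, lysyl hydroxylase 2 (Plod2), which makes the stable cross-links typical of fibrotic tissue, rose in the first week. Its differences were 0.78, 0.9 and 0.93 on day 1 and 1.38, 1.14 and 0.48 on day 3 for CNF1, CNF2 and CNF3. The mean rise was 0.87 ± 0.14, then 1.00 ± 0.14, and 0.50 ± 0.14 on day 7 (SE). Loxl2, a lysyl oxidase that oxidises collagen for cross-linking, rose on day 3 by 0.72 ± 0.13, with differences of 1.06, 0.95 and 0.16. P4ha1, a prolyl hydroxylase whose product stabilises the collagen helix, rose by 0.50 ± 0.17, with differences of 1.2, 0.21 and 0.08. The CNF1 vehicle of that day was low for P4ha1 (-0.47), and the mean was 0.15 without CNF1 and 0.64 without CNF2, short of the threshold in both cases. Loxl1, the family member needed for elastic fibres, fell by 0.33 ± 0.08 on day 1 and 0.29 ± 0.08 on day 30. Lox and the collagen chaperone Serpinh1 passed on none of the 5 days.

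Tgfb1, the growth factor itself, was above vehicle in all 15 cellulose pairs and all 5 MWCNT pairs. Its cellulose differences ran from 0.15 to 1.59 with a median of 0.56. The mean rise was 1.07 ± 0.18 on day 3, 0.91 ± 0.18 on day 7 and 0.83 ± 0.18 on day 30, while days 1 (0.38 ± 0.18) and 90 (0.48 ± 0.18) did not pass. Macrophages are a known source of this factor. Of 9 macrophage markers 4 rose and 1 fell on day 1. Later 5 rose on day 3, 4 on day 7, 5 on day 30 and 3 on day 90. Of all genes 17.9%, 24.7%, 13.8%, 4.13% and 0.98% were higher on the 5 days. On day 3 the mean of these markers was -0.88 to -0.36 in the vehicle arrays and 0.15 to 0.19 in the cellulose arrays. Their part in the Tgfb1 value was not tested.

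Other genes of the pathway gave a mixed picture. Of 19 further genes of the transforming growth factor beta pathway, 7 rose and 6 fell on day 3 and 9 rose and 5 fell on day 7. Of all genes 24.7% were higher and 19.5% lower on day 3, and 13.8% and 13.1% on day 7. The receptor Tgfbr1 rose by 1.2 ± 0.13 on day 3, 1.68 ± 0.13 on day 7 and 1.25 ± 0.13 on day 30, and still by 0.74 ± 0.13 on day 90 (adjusted p = 0.0092). Itgav, an integrin chain that releases the active factor, rose by 1.02 ± 0.12 on day 3, and the inhibitory Smad6 fell by 1.46 ± 0.17. Of 28 other matrix glycoproteins and proteoglycans, 7 rose and 14 fell on day 3, among them Cthrc1, a protein of injured and fibrotic tissue, with a rise of 1.37 ± 0.18 and the elastic fibre protein Efemp1, which fell by 1.1 ± 0.13. Of 16 other collagens 5 rose and 3 fell on day 3, led by Col5a3 (1.51 ± 0.24). Of 17 other processing genes 4 rose and 3 fell, and Pcolce, an enhancer of procollagen cleavage, rose by 0.79 ± 0.15. The counts of other collagens and other processing genes lay near the 44.3% of all genes that passed on day 3.

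Smooth muscle markers were higher in the same week. Of 7 such markers 6 rose on day 1, 5 rose and 1 fell on day 3, 4 rose on day 7, and 0 passed on days 30 and 90. Their mean on day 3 was -0.19 to 0.04 in the vehicle arrays and 0.18 to 0.59 in the cellulose arrays. Of 7 cartilage markers 2 rose on day 1, and 3 rose and 1 fell on day 3. Of 8 cardiac muscle markers 6 fell on day 3. Among all genes 17.9% were higher and 16.9% lower on day 1, 24.7% and 19.5% on day 3, and 13.8% and 13.1% on day 7. The part of these cell types in the matrix gene values was not tested.

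**Figure D2:**
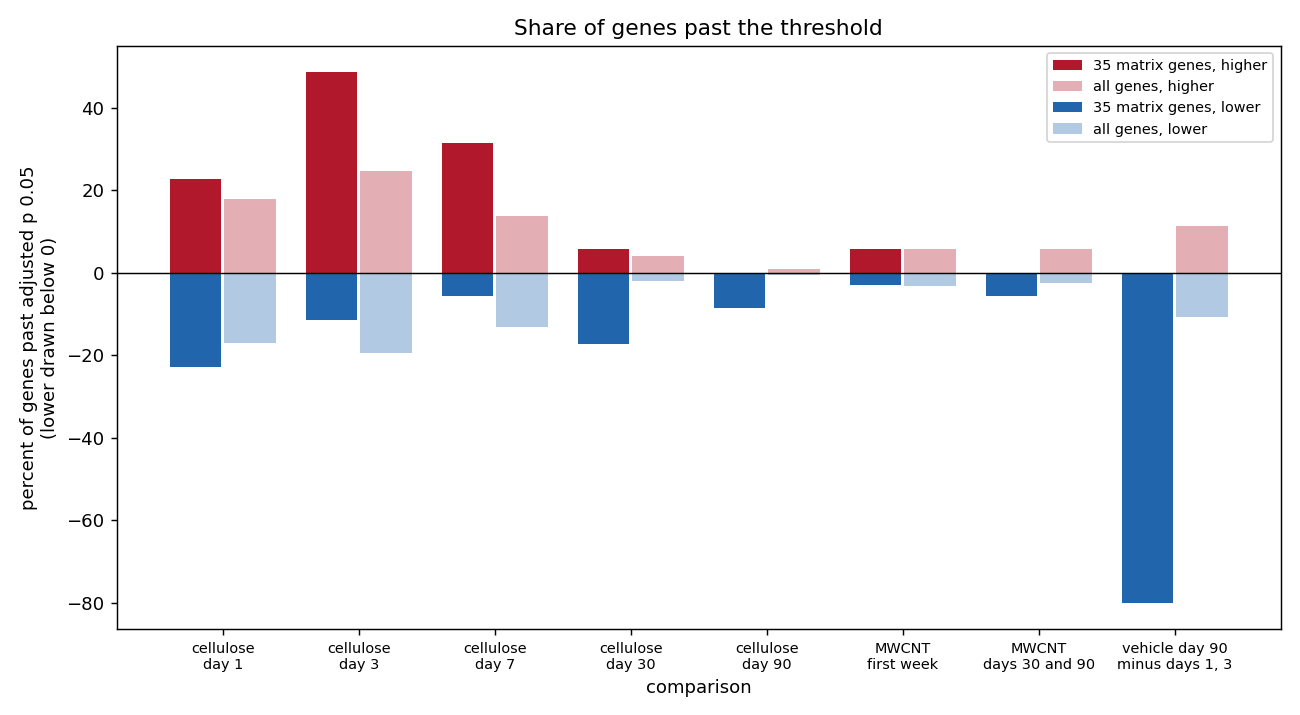
Percent of genes past an adjusted p of 0.05 in each comparison, drawn upward for higher and downward for lower, with dark bars for the 35 matrix genes and pale bars for all genes. Both kinds of bar are tall for cellulose in the first week, while in the vehicle arrays 28 of the 35 genes were lower on day 90.

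With MWCNT, Dcn fell in both periods and Tgfbi and Fn1 rose in the first week. In the first week, with days 1, 3 and 7 as stand-in replicates, 2 of the 35 genes rose and 1 fell, where 8.93% of all genes passed (5.74% higher and 3.19% lower). Tgfbi differed from vehicle by 0.81, 0.54 and 0.57 on the 3 days, a rise of 0.64 ± 0.13 (SE, adjusted p = 0.0098). Fn1 differed by 0.59, 0.33 and 0.18, a rise of 0.37 ± 0.10, and Dcn fell by 1.03 ± 0.14. Thbs1 differed by 1.59, 1.28 and 0.35, all above 0, with 1.07 ± 0.32 at the threshold (adjusted p = 0.05). Without day 1 the 3 calls became 1, and after quantile normalization they became 15, of which 11 were lower. On days 30 and 90 0 genes rose and 2 fell, Dcn by 0.66 ± 0.17 and Fbn1 by 0.35 ± 0.10, where 8.11% of all genes passed (5.75% higher and 2.37% lower), and both calls were lost when either day was left out. At these late days 5 of 9 macrophage markers were higher with MWCNT, while the median of the 35 matrix genes was -0.22.

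The difference between MWCNT and cellulose passed for 0 of the 35 genes in the first week, where 0% of all genes passed, and for 0 on days 30 and 90, where 0.17% passed (0.157% higher and 0.0126% lower). At an unadjusted p under 0.05 there were 8 and 0 of the 35. Plod2 came nearest in the first week, at -0.69 ± 0.16 for MWCNT minus cellulose (adjusted p = 0.23), followed by Loxl2 at -0.53 ± 0.15. Without CNF3, 6 genes passed in the first week, all lower with MWCNT. The contrast compares 3 pairs with 9, and it shares the assumption that days and preparations scatter alike.

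Averaged over the 5 days in the fit of all 80 arrays, CNF1 raised 9 and lowered 8 of the 35 genes, where 41.6% of all genes passed (21.8% higher and 19.8% lower). CNF2 raised 8 and lowered 4 against 31.3% of all genes (15.6% and 15.7%). CNF3 raised 6 and lowered 4 against 19.7% (9.75% and 9.99%), and MWCNT raised 2 and lowered 6 against 21.8% (12.7% and 9.14%). Dcn, Col4a2 and Tgfb1 passed with all 4 materials. The Dcn effect was -1.09 ± 0.13 for CNF1, -0.82 ± 0.13 for CNF2, -1.1 ± 0.13 for CNF3 and -0.88 ± 0.13 for MWCNT (SE). The Col4a2 effect was -0.6, -0.41, -0.31 and -0.39, each with an SE of 0.1. Fn1, Thbs2, Vcan and Plod2 rose with the 3 cellulose preparations and did not pass with MWCNT, a difference that was not tested over 5 days. Among the 3 preparations, 0 of the 35 genes differed (F test, smallest adjusted p = 0.62, 3 at an unadjusted p under 0.05), where 0.163% of all genes did. Leaving out day 7 lowered the CNF3 count from 10 to 5 and the MWCNT count from 8 to 3, and leaving out day 1 lowered that of CNF3 to 6. The MWCNT count was 4 without day 3, 3 without day 30 and 5 without day 90.

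The dose series was not steady. In the first week the mean Thbs1 difference over 9 cellulose pairs was 2.4 ± 0.89 (SD) at the lowest dose, 1.74 ± 0.8 at the middle and 1.81 ± 0.79 at the top dose, so the lowest dose gave the highest mean within overlapping spreads. Over the 6 cellulose pairs of days 30 and 90 its means were 1.23 ± 0.4, -0.07 ± 0.47 and 0.05 ± 0.4, and here the lowest dose stood well above the others. MWCNT on those days gave 1.15 ± 0.2, -0.23 ± 0.63 and -0.22 ± 0.24 over 2 pairs. Fn1 gave 0.38 ± 0.3, 0.65 ± 0.21 and 0.72 ± 0.22, Vcan 0.75 ± 0.56, 1.06 ± 0.44 and 1.17 ± 0.56, and Plod2 0.4 ± 0.26, 0.45 ± 0.22 and 0.79 ± 0.36. These 3 means rose with dose, but only 4, 4 and 3 of their 9 series did so step by step. Dcn gave -0.59 ± 0.36, -0.57 ± 0.32 and -1.05 ± 0.27, close together at the lower doses. The median of the control spots differed from vehicle by 0.2 ± 0.26, 0.17 ± 0.46 and 0.19 ± 0.76 in the same pairs, a spread as wide as many of these steps. The tests of single days left out the lower doses, because an earlier look at these data found their control spots shifted. The tested top dose was no steadier on these spots. Their mean over 20 arrays was 0.02 ± 0.28 (SD) at vehicle and -0.07 ± 0.35 at the lowest dose. It was -0.13 ± 0.39 at the middle and 0.18 ± 0.46 at the top dose. At the lowest dose the median over all genes was 0.13 and 0.12 in the early and late cellulose pairs, and 0.14 and 0.1 with MWCNT. On the late days Col12a1 and Col14a1 were also highest there, at 0.53 and 0.61 with cellulose and 0.65 and 0.71 with MWCNT. The part of such shifts in the dose series was not tested.

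**Figure D3:**
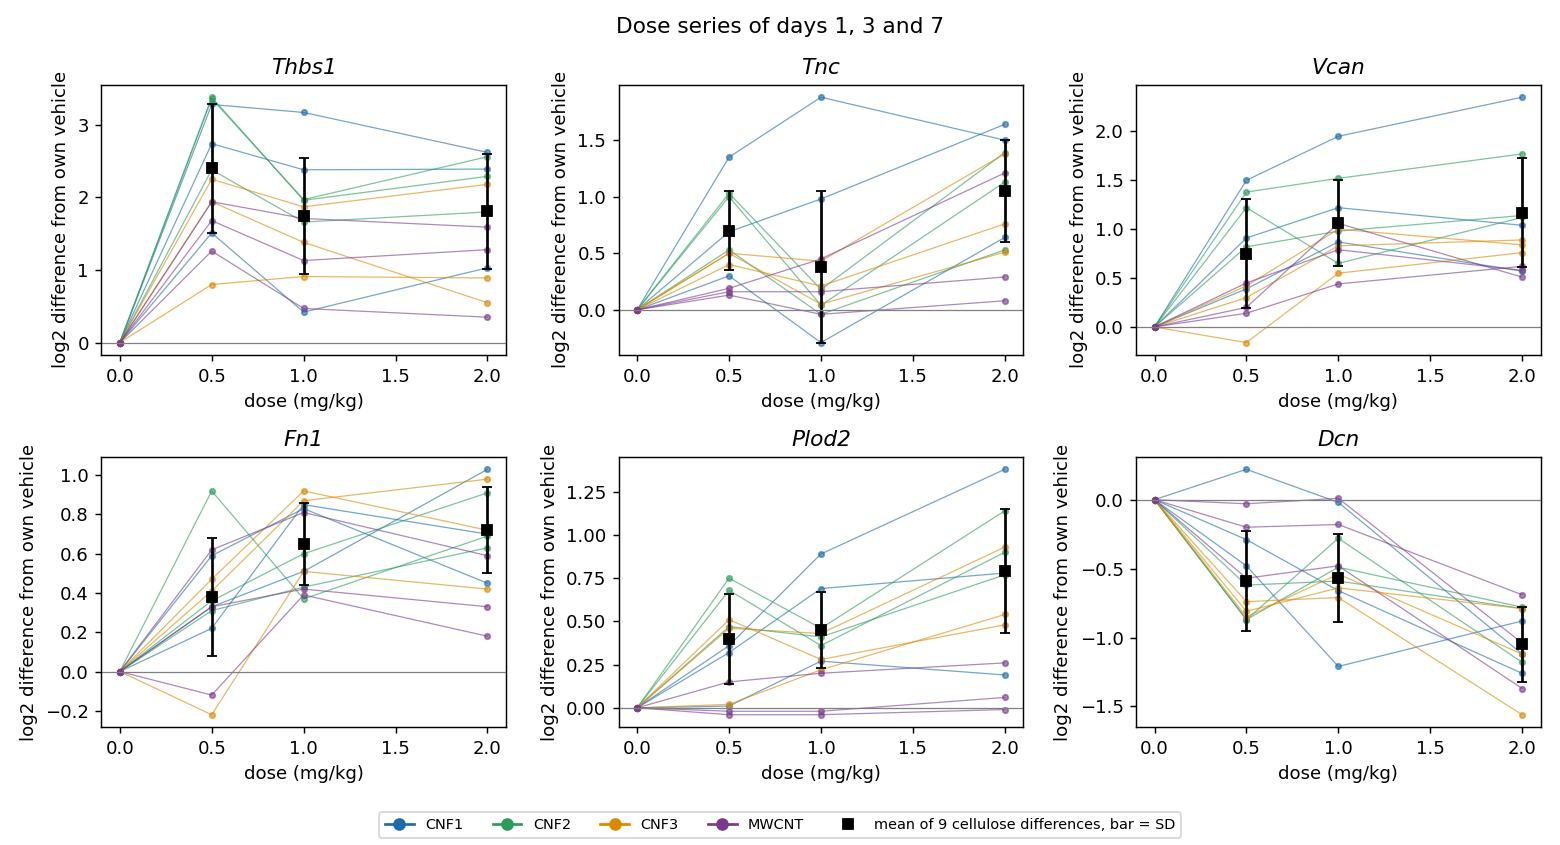
Log2 difference from the own vehicle against dose in mg/kg for 6 genes on days 1, 3 and 7. Thin lines are the 12 series of a material and a day, squares the mean of 9 cellulose differences and bars their SD. Thbs1 is as high at 0.5 as at 2.0 mg/kg, while Dcn falls furthest at 2.0 mg/kg.

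The mean effect of days 30 and 90 minus that of days 1, 3 and 7 was lower for 17 of the 35 genes and higher for 0, where 21.4% of all genes passed (9.06% higher and 12.4% lower). The largest falls were those of Thbs1 (-1.77 ± 0.29), Tnc (-1.59 ± 0.19), Vcan (-1.07 ± 0.17), Loxl2 (-0.80 ± 0.12), Tgfbi (-0.76 ± 0.12) and Plod2 (-0.73 ± 0.13). Dcn (0.12 ± 0.12) and Tgfb1 (-0.14 ± 0.16) did not pass. The 17 calls became 0 without CNF2, 7 without day 30 and 5 without day 90, and 0 with the control-spot factors, where 9 of the 27 spots also passed. With those factors the differences were -1.26 for Thbs1, -1.36 for Tnc, -0.94 for Vcan and -0.82 for Tgfbi, and that of Col6a1 went from -0.6 to -0.3.

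In the vehicle arrays, which saw no test material, most matrix genes were lower at the end of the study. From days 1 and 3 to day 90, 28 of the 35 genes fell and 0 rose, where 22% of all genes passed (11.4% higher and 10.6% lower). The median change of the 35 genes was -0.68, beside -0.01 over all genes. The count was 28 after quantile normalization and with the control-spot factors, 26 to 28 when the vehicle arrays of 1 material were left out, and 20 when genes of low range were. That filter took some of the 28 genes, such as Bgn, Lox and Loxl1, out of the test. The drop to 20 is thus at least partly set by the filter. Age, time since instillation of the vehicle and the processing of each day cannot be told apart.

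Col1a1 and Col3a1 had the largest falls of the 35 genes. The 8 vehicle arrays of days 1 and 3 held Col1a1 values from 0.06 to 0.56 with a median of 0.38, and the 4 of day 90 held -1.66, -1.63, -1.39 and -1.42. The ranges lay more than 1 log2 unit apart, and Col1a1 fell by 1.89 ± 0.12 (SE, adjusted p = 3.8e-07), or 3.69-fold. Col3a1 went from 0.04 to 0.4 (median 0.23) to -1.52, -1.26, -1.14 and -1.22, and fell by 1.51 ± 0.07. Col1a2 fell by 1.11 ± 0.08, Col5a1 by 0.89 ± 0.07 and Col5a2 by 0.78 ± 0.04. Col12a1 was the one gene of the 7 fibrillar and associated collagens that did not pass (0.08 ± 0.07).

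All 5 basement membrane and microfibrillar collagens fell. Col6a2 went from between -0.22 and 0.85 (median 0.26) to -0.88, -0.53, -0.7 and -0.71, and fell by 1.02 ± 0.05. Col15a1 fell by 1.02 ± 0.07, Col6a1 by 0.96 ± 0.07, Col4a1 by 0.58 ± 0.06 and Col4a2 by 0.56 ± 0.07, so both genes of the type IV pair were lower here, although the 2 probes of Col4a1 gave -0.88 and -0.28 and the second did not pass (adjusted p = 0.086). All 4 elastic fibre genes fell, led by Eln (1.09 ± 0.09) and Fbn1 (1.04 ± 0.06). Of the processing genes 5 of 6 fell, with Loxl2 going from between 0.01 and 0.45 (median 0.21) to -1.23, -0.9, -0.95 and -1.14. Loxl2 fell by 1.27 ± 0.08. Lox and Serpinh1, which passed in no exposure comparison of a single day, fell by 0.81 ± 0.06 and 0.59 ± 0.05.

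Of the 8 matricellular genes 5 fell, Tnc by 1.31 ± 0.09 and Thbs2 by 0.93 ± 0.09 at the top and Postn by 0.34 ± 0.08 at the bottom. Vcan went from between -0.12 and 0.53 (median 0.21) to -1.13, -1.0, -1.03 and -1.15. It fell by 1.30 ± 0.05 (adjusted p = 1.4e-08). The 7 genes that did not pass were Thbs1, Tgfbi, Ccn2, Dcn, Col12a1, P4ha1 and Tgfb1. Dcn alone among the small proteoglycans was no lower on day 90, with early values of 0.06 to 0.6 and late values of 0.81, 0.59, 0.82 and 0.45 (0.30 ± 0.16, adjusted p = 0.2). In the same arrays, where 11.4% of all genes rose and 10.6% fell, 6 of 7 smooth muscle markers fell. Of 11 fibroblast markers 5 fell and 3 rose, and of 9 macrophage markers 5 rose. Their part in the change was not tested.

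Against day 1, 2 genes had fallen by day 3, Col6a2 (0.59 ± 0.06) and Vcan (0.40 ± 0.06), where 0.1% of all genes passed. By day 7 Col6a1 had fallen as well, where 0.345% of all genes passed (0.0691% higher and 0.276% lower). By day 30 18 genes had fallen, where 2.44% passed (0.502% and 1.93%), and by day 90 29, where 16.1% passed (8.01% and 8.1%). Col1a1 had fallen by 0.85 ± 0.14 on day 30. Its vehicle means were 0.44 ± 0.11, 0.28 ± 0.16, -0.03 ± 0.37, -0.41 ± 0.14 and -1.52 ± 0.14 (SD, n = 4) on the 5 days. The step from day 30 to day 90 was the largest, but it also covers the longest interval. A test of any difference among the 5 days passed for 28 of the 35 genes (F test, 11.9% of all genes).

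**Figure D4:**
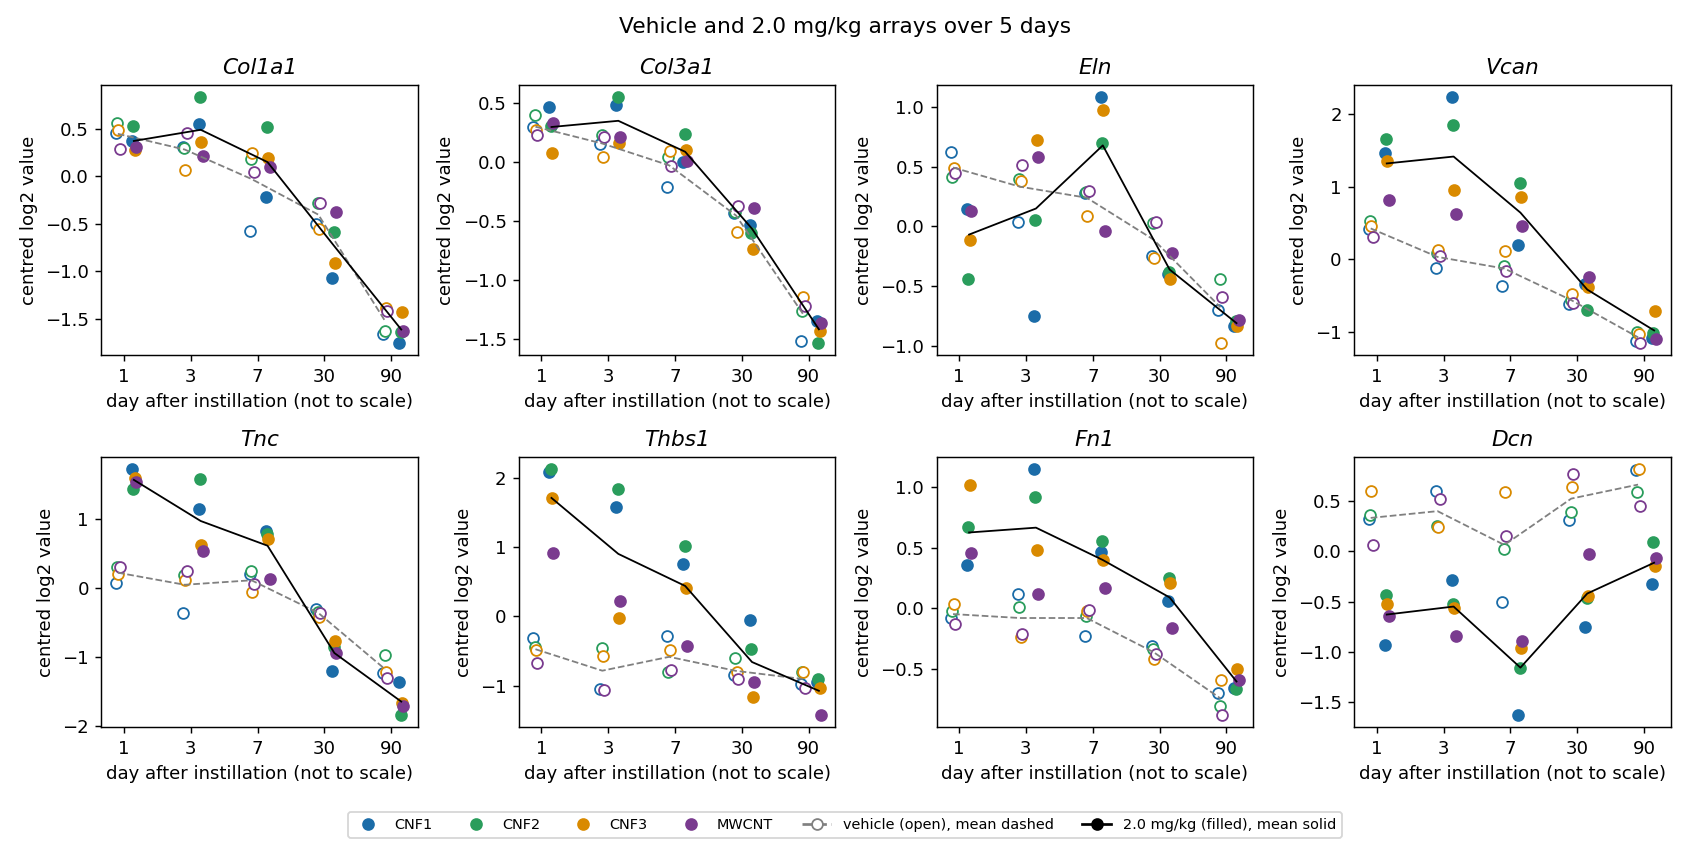
Centred log2 values of 8 genes on days 1, 3, 7, 30 and 90 (horizontal axis not to scale), with open circles for the 4 vehicle arrays and filled circles for the 4 arrays at 2.0 mg/kg, coloured by material. Lines join the means of 4 arrays. Col1a1 and Col3a1 fall with time in both, Thbs1 and Vcan start above vehicle and approach it, and Dcn stays below vehicle on each day.

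The same contrast in time was taken at each dose. The 4 arrays of day 90 lay below all 8 of days 1 and 3 for 26 of the 35 genes at vehicle, 26 at the low dose, 25 at the middle and 28 at the top dose, where 872, 1752, 3474 and 1500 of the 15924 genes did (5.48% at vehicle and 21.8% at the middle dose). The median change of the 35 genes was -0.68, -0.69, -0.71 and -0.87 at the 4 dose levels. For Col1a1 the change over time was -1.89 in vehicle arrays and -2.04 at 2.0 mg/kg, while its mean cellulose effects that passed were 0.36 on day 3 and -0.41 on day 30. For Thbs1 the order was the reverse, with a change over time of -0.28 ± 0.11 in vehicle arrays, short of the threshold, and an exposure effect of 2.38 on day 1.

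**Figure D5:**
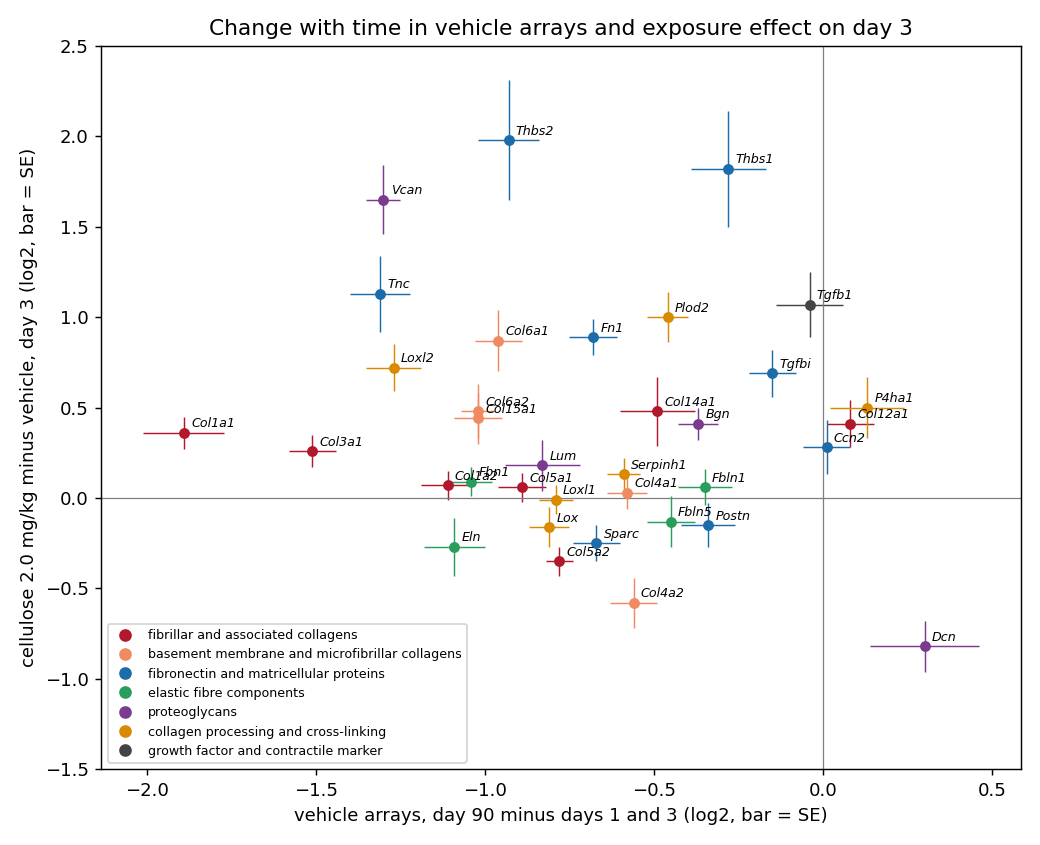
Exposure effect of cellulose at 2.0 mg/kg on day 3 (vertical axis) against the change of the vehicle arrays from days 1 and 3 to day 90 (horizontal axis), both in log2 with SE bars, 1 point per gene coloured by role. The 2 axes share the vehicle arrays of day 3. Most points lie left of 0, and Dcn is the one gene in the lower right.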

How the data were processed

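RNA from rat lungs was labelled with Cy3, and spot intensities came from Feature Extraction 12.0.3.1 as stated per the submitters' processing notes. The authors deposited log2 values after normalizing and centring them probe by probe. The method, the baseline and the base of the logarithm are not given in the sources used here, and base 2 was assumed. Signal levels, detection calls, slides and scan times were not used here. Of 41012 rat probes 20932 carried 1 gene symbol. Symbols were updated through RefSeq and the probes of a gene averaged, giving 15924 genes.

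Tests used limma 3.58.1 in R 4.3.3 (lmFit and eBayes) with Benjamini-Hochberg adjustment over 15924 genes at 0.05. The fits were the 20 differences of 2.0 mg/kg from the own vehicle (13 residual degrees of freedom), all 80 arrays with material by dose and material by day (48), and the 20 vehicle arrays with day and material (12). The fits were tested on simulated data. The genes, lists and tests were chosen with earlier results of these data known. Any of the 35 genes could be named, with values in every array for up to 8 per comparison with the smallest p and up to 2 per role, and up to 4 per further list. The arrays were no copies of each other (highest correlation 0.84, 0 identical pairs). Alternatives were quantile normalization, control-spot factors, robust variance, a filter on range, every probe, a common control, a dose slope, the vehicle and top dose alone, day 1 alone as the baseline, and leaving out a preparation or day.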

Additional observations from a re-analysis of the deposited data

Results flagged for a closer look

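The effect of cellulose at 2.0 mg/kg differed between the late days (30 and 90) and the first week for 17 genes by the contrast of the 2 periods (limma). Late minus first week was -1.77 for Thbs1, -1.59 for Tnc, -1.07 for Vcan, -0.8 for Loxl2, -0.76 for Tgfbi and -0.73 for Plod2. It was -0.62 for Col12a1, -0.6 for Col6a1, -0.49 for Ccn2, -0.45 for Lum, and -0.41 for both Col6a2 and Fn1. It was -0.39 for Col1a1, -0.35 for Bgn, -0.31 for Col1a2, -0.29 for Fbn1 and -0.26 for Col3a1. Tnc, Loxl2 and Col12a1 were above vehicle in all 9 first-week pairs and below it in all 6 late pairs. Col1a1, Col1a2, Fbn1 and Lum were below vehicle in all 6 late pairs and on both sides in the first week.

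Among 175 sets of the 4 vehicle arrays of a gene and day, 11 held 1 array far from the other 3, where chance alone gives about 1 in 20. The CNF1 vehicle was the distant array in 8 of them. On day 3 it was low for P4ha1 (-0.47), Thbs2 (-0.32) and Postn (-0.12) and high for Tgfbi (0.25). On day 7 it was low for Col14a1 (-0.36), Loxl2 (-0.33) and Col1a2 (-0.32), and on day 30 high for Ccn2 (0.32). The CNF3 vehicle was the distant array for Eln on day 7 (0.09), Plod2 on day 30 (-0.04) and Thbs2 on day 90 (-0.76). For each of these genes the distant vehicle value, low or high, enters the differences of that material on that day.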

How the results depend on the processing

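With 1 array per group, unknown signal levels and control spots that passed in the first week, counts of single days are the least certain values here. The 28 genes that fell in vehicle arrays became 20 when genes of low range were left out and 26 to 28 when 1 material was. For the test of any difference among days, 28 became 18 and 22 to 24. Exposed arrays were paired with their own vehicle throughout. A further block by replicate number could not be fitted, since each group held 1 array.

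With the 3 control-spot factors the counts became 0 for cellulose on day 1, 5 on day 3, 1 on day 7, 5 on day 90 and 0 for late minus first week, and 1 in each MWCNT window. Of all genes 19, 1377 and 76 then passed on days 1, 3 and 7. Quantile normalization gave 15 for MWCNT in the first week, 0 for MWCNT on days 30 and 90, 7 for late minus first week, 8 for CNF1 and 5 for MWCNT over 5 days, and turned Col6a1 on day 1 to -0.07. It moved the share of called genes that were higher from 51.5% to 35.7% for cellulose on day 1, 65.3% to 36.8% on day 90, 64.3% to 49.2% for MWCNT in the first week, 70.8% to 90.4% on days 30 and 90, and 51.9% to 65.5% for the vehicles. Leaving out genes of low range gave 5 for cellulose on day 30, 0 for MWCNT on days 30 and 90, 11 for late minus first week and 4 for MWCNT over 5 days. The dose slope gave 3 for day 30, 1 for day 90, 0 for MWCNT on days 30 and 90 and 6 for late minus first week. A common control gave 1 for day 90 and 6 for the difference among preparations. Every probe gave 1 for MWCNT on days 30 and 90. The vehicle and top dose alone gave 4 for CNF3 and 3 for MWCNT. The cause of these moves was not tested.

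Leaving out 1 preparation or day gave 9 to 16 calls for cellulose on day 1, 12 to 24 on day 3, 5 to 13 on day 7, 1 to 6 on day 30 and 0 to 3 on day 90. It gave 1 to 3 and 0 to 0 for MWCNT in the 2 windows, 0 to 6 for MWCNT minus cellulose in the first week and 0 to 17 for late minus first week. Over 5 days it gave 15 to 19 for CNF1, 8 to 14 for CNF2, 5 to 9 for CNF3 and 3 to 6 for MWCNT. Of the single gene calls under all alternatives, 1553 held, 421 no longer passed and 1 reversed.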
